A study of Mus musculus with 2 samples.

Results

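The genes described here encode the histones that package new DNA, together with a few relatives that the same naming scheme covers. Members were all probe sets of the deposited array table whose platform gene symbols without exception begin with H1f and a digit, H2ac, H2bc, H3c or H4c, or with an older Hist symbol. This gave 60 probe sets of 41345, or of 25335 that carry any gene symbol. By class they were 8 for linker histone H1, 18 for H2A, 13 for H2B, 12 for H3, 8 for H4, and 1 that names both an H1 and H2B genes. They name 61 of the 23981 genes on the arrays. Of these 61, 29 have a probe set of their own and 32 are measured only on probe sets shared with other member genes. All 12 H3 genes are of this shared kind. A further 8 probe sets name at least 1 matching and 1 non-matching symbol and were left out of the members.

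The study used 2 arrays, each with RNA of spleen cells from Fx-/- mice. The Fx gene (current symbol Gfus) is needed to make GDP-fucose from mannose, and mice that lack it can build fucosylated glycans only from supplied fucose. The first was from mice that were fucose-treated (on fucose), the second from mice with no fucose treatment (off fucose). Both groups carry the same genotype, and no array of a mouse with intact Fx was used here. The labels call the cells type 1 conventional dendritic cells (cDC1), obtained by removing splenocytes with B220 and CD11b and then selecting for CD11c. They give no strain, age, sex or number of mice. With 1 array per group there is no replicate check, no test and no p-value, and the fucose supply cannot be told apart from other differences between the 2 samples.

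Eukaryotic DNA is wound around octamers of the core histones H2A, H2B, H3 and H4, and histone H1 binds the linker between them. Dividing cells need a large supply of new histones while DNA is copied, and the replication-dependent genes provide it from clusters of intronless copies that encode nearly the same protein. Their mRNAs end in a conserved stem-loop in place of a poly(A) tail, and are made and stabilised in S phase and degraded when it ends. In the spleen, resting lymphocytes need little of this supply, and dividing precursors of blood cells need much. Not every member fits the label of replication dependence. H1f6, H1f7, H2ac1 and H2bc1 are known from male germ cells, H1f8 from oocytes, and H1f10 is a replacement type not tied to S phase. These 6 genes account for 6 of the probe sets and had log2 intensities between 2.26 and 3.32 on both arrays.

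The members' largest positive differences lay in H2B. Some H2B and H2A promoters carry an octamer of bases that was not found in those of H1, H3 and H4. Any link between promoter sequence and the differences was not tested. The promoters of 6 genes are shown as a description. Each is the 150 bases before the annotated start, from RefSeq (GRCm38.p6), printed 5′ to 3′ along the gene's own strand. Capitals mark TATAAA (the TATA box), CCAAT (bound by NF-Y), ATTTGCAT (the octamer bound by Oct-1, the product of Pou2f1) and GATTTC on either strand. The largest positive differences of the members were on the probe set of H2bc3 and on a probe set that H2bc13 shares with H2bc15, H2bc11 and H2bc7. The difference on the shared probe set cannot be assigned to a single gene. H2bc22 is an H2B gene whose own probe set had nearly equal values near the floor of the scale (log2 2.46 and 2.44). Such values do not show whether the gene is silent or unchanged. H2ac10, H1f2 and H4c12 stand for other classes.
H2bc3 (chr13:23746584-23746733, plus strand): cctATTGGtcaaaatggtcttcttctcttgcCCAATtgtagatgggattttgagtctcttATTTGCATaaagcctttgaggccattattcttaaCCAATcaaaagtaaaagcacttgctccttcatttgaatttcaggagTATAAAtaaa
H2bc13 (chr13:21716184-21716333, minus strand): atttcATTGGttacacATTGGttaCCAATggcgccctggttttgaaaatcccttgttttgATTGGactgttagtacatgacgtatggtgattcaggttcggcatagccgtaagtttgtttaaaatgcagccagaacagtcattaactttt
H2bc22 (chr13:21787338-21787487, plus strand): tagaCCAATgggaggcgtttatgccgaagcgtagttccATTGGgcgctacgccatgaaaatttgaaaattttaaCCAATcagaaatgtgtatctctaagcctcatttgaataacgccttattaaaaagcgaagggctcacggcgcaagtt
H2ac10 (chr13:23533725-23533874, plus strand): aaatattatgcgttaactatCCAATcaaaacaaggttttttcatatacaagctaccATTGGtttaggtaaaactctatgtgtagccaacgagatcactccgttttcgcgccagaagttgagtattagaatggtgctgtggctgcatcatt
H1f2 (chr13:23738657-23738806, plus strand): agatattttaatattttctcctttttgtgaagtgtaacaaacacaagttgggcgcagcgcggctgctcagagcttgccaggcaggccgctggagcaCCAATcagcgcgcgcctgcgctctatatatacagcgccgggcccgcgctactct
H4c12 (chr13:21750554-21750703, minus strand): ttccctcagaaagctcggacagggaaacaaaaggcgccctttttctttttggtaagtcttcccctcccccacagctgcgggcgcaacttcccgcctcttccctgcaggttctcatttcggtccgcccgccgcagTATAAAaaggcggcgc

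In this window H2bc3 held 1 octamer, 3 CCAAT matches and 1 TATAAA. H2bc13 held 4 CCAAT matches and H2bc22 held 3, and neither had the octamer or TATAAA in these letters. The windows of H2bc15, H2bc11 and H2bc7, which share a probe set with H2bc13, had no octamer either. Besides H2bc3, the H2B genes with the octamer in this window were H2bc6, H2bc8, H2bc12, H2bc14 and H2bc18. Promoters were in the RefSeq table for 56 of the 61 genes, as 57 windows, and the search covered 250 bases before each start. The members other than the germ-cell and replacement types had 51 windows. The octamer or its reverse complement ATGCAAAT was in 6 of 13 H2B windows and 5 of 16 H2A windows, in 0 of 5 for H1, 0 of 10 for H3 and 0 of 7 for H4, and in 1.60% of all 32851 promoters. CCAAT or ATTGG was in all 13 H2B, all 16 H2A and all 5 H1 windows and in 8 of 10 for H3, but in 1 of 7 for H4, against 33.8% of all promoters. TATAAA or TTTATA was in 24 of the 51 windows (47.1%) against 12.4% of all. GATTTC or GAAATC was in 7 of them (13.7%) against 10.5%. Neighbouring matches can share bases. Some H2A and H2B genes lie head to head, so their windows overlap. The same site can then count in both classes, as with the octamer of H2ac8 and H2bc8, and these counts are not separate observations. These are matches of letters, not shown to be bound.

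Intensities over the whole table had a median of 6.99 on fucose and 7.04 off fucose, or 2.81 and 2.82 on the log2 scale. The markers of several cell types differed between the arrays. For comparison, 1.2% of all 22180 genes were at least 2-fold higher off fucose and 0.257% were at least 2-fold lower. Of 13 T cell markers 9 were measured, and all 9 lay between 7.44 and 11.20 on either array. Each was lower off fucose, with a median log2 difference of -0.34. Lower values were also common among all 5612 probe sets with a symbol and a mean log2 of at least 5. Of these, 3430 were lower off fucose, with a median of -0.07. Xcr1, the chemokine receptor that defines cDC1, had only 2.90 and 3.43. The granulocyte precursor markers had a summed intensity of 128 on fucose and 2999 off fucose, with 9 of 12 at least 2-fold higher, and those of red cell precursors had 113 and 553, with 8 of 11. The basophil and mast cell markers had 106 and 1114, with 5 of 6 at least 2-fold higher. The B cell markers had 64.7 and 57.3 over 6 genes, with 0 at least 2-fold apart. Those of cDC1 had 345 and 718 over 11, with 4 at least 2-fold higher. The cDC1 markers went both ways, with 9 higher and 2 lower off fucose. The part of these cells in the histone values was not tested. More cells of a type and more RNA per cell cannot be told apart in such bulk samples.

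Histone probe sets with a clear signal were mostly higher off fucose, and the largest positive differences were in H2B. Of the 60 members, 42 (70.0%) had a higher value off fucose, 17 a lower one and 1 the same value on both arrays, where 47.9% of all probe sets with a symbol were higher. Differences are off minus on fucose on the log2 scale. Their median over the members was 0.17, beside 0 over all probe sets with a symbol. Only 2 members were at least 2-fold higher, both of H2B, and 1 was at least 2-fold lower, of H3. Among all probe sets with a symbol, 1.14% were at least 2-fold higher and 0.268% lower, so that these counts rest on very few members. At 1.5-fold, 7 members were higher and 3 lower, with shares of 3.11% and 2.25% over all. At 3-fold there were 0 members either way, with 0.485% and 0.0513% over all.

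The split depends on the scale on which the arrays are compared. The median difference over all probe sets was already 0, so median centring could change nothing. Lowess and quantile normalisation left 42 members above 0, and each gave 3 at least 2-fold higher. With differences centred on the median of the T cell markers, which moves every value up by 0.34, 56 of 60 members were above 0, but so were 90.8% of all probe sets with a symbol. On that scale 7 members were at least 2-fold higher and 0 lower, against 2.51% and 0.0829% of all.

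**Figure D1:**
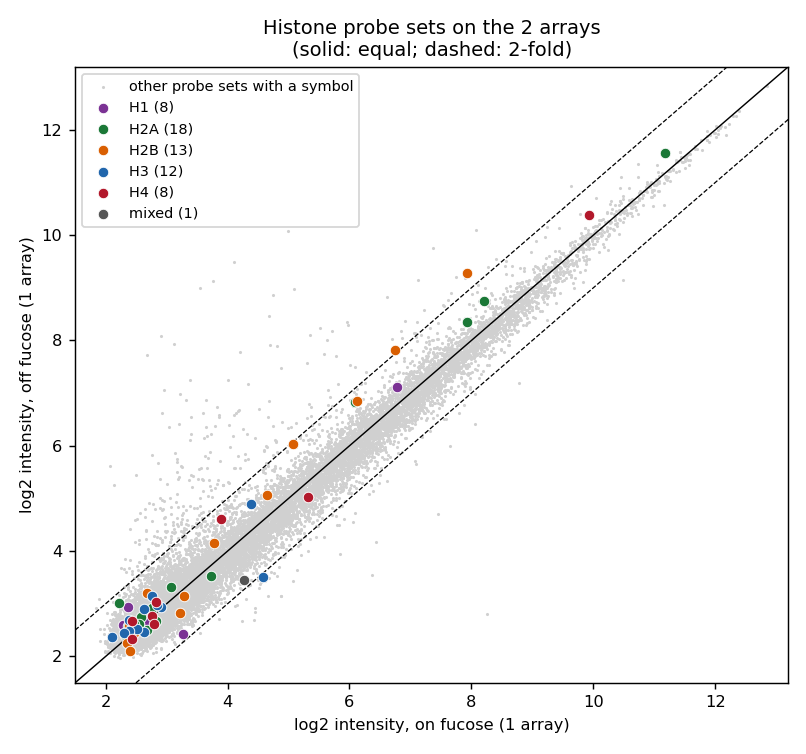
Log2 intensity of each histone probe set on the on-fucose array (horizontal) and the off-fucose array (vertical), coloured by class, over all probe sets with a gene symbol (grey). Most coloured points above 5 lie over the solid line of equal values, 2 of H2B reach past the upper dashed 2-fold line, and 41 members lie under 4 on both arrays.

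The members differed in signal strength. On both arrays 41 of the 60 had a log2 intensity under 4. Differences may be understated at such levels, which was not tested. A low value need not mean a silent gene, since probe sets differ in response. Of these 41, 26 were higher off fucose (63.4%; 51.9% among all probe sets that low), with a median difference of 0.09. A mean of at least 5 was found for 13 members, and all 13 were above 5 on each array taken alone. Of these, 12 were higher off fucose, against 38.2% of all probe sets with such a mean, and the median difference was 0.45 against -0.07. At least 1.5-fold higher were 5 of the 13, against 3.96%. These 13 are not independent: 2 pairs of probe sets had identical values on both arrays, which leaves 11 distinct ones, 10 of them higher, and several name the same genes. As a yardstick, the robust SD of differences among probe sets of like level was 0.19 to 0.32 for these 13. It mixes technical and biological differences and is not a replicate error.

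**Figure D2:**
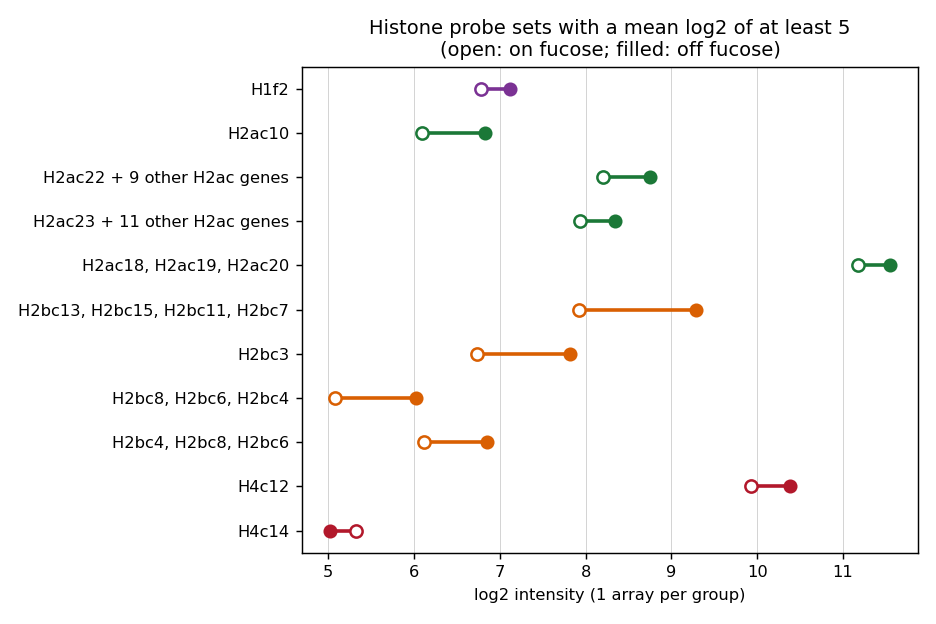
Log2 intensity (horizontal) of the 11 distinct histone probe sets with a mean of at least 5, with open points for the on-fucose array and filled points for the off-fucose array, coloured by class. The lines of the H2B probe sets span 0.73 to 1.36, that of H2ac10 spans 0.73, and H4c14 is the only one whose filled point lies to the left.

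H2B forms a dimer with H2A in the nucleosome. The probe set shared by H2bc13, H2bc15, H2bc11 and H2bc7 had an intensity of 243 on fucose and 623 off fucose, or 7.92 and 9.28 on the log2 scale. It was 2.57-fold higher off fucose, the largest difference of any member (1.36). H2bc3, on its own probe set, had 107 and 225, or 6.74 and 7.82, and was 2.11-fold higher. H2bc4, H2bc6 and H2bc8 share 2 probe sets, which differed by 0.73 (from 6.12 to 6.85) and by 0.95 (from 5.08 to 6.03). So all 4 H2B probe sets with a mean of at least 5 were at least 1.5-fold higher off fucose, with a median of 1.01.

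The other H2B probe sets were dimmer and went both ways. H2bc18 had 4.65 and 5.07, a difference of 0.42. H2bc14 had 2.68 and 3.21 (0.53), and H2bc9 had 2.38 and 2.57 (0.19). H2bc21 had 3.22 and 2.83, the lowest difference of the class (-0.40). H2bc12 had 3.29 and 3.16 (-0.13). H2bc22 had 2.46 and 2.44 (-0.02), the nearest to 0, and the male germ cell gene H2bc1 2.35 and 2.26 (-0.09). These values near the floor of the scale do not show whether the genes are silent. The 4 genes of the probe set with the largest difference are named by 2 further probe sets, which had 0.37 (from 3.78 to 4.16) and -0.31 (from 2.41 to 2.09). Probe sets with the same gene names thus differed by up to 1.67 in their differences. Over all 13 the class median was 0.37, with 8 higher and 5 lower off fucose, and over the 8 with 1 gene it was 0.09.

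Among the probe sets left out for a non-matching symbol, the one with a mean of at least 5 was also of H2B. It names 12 symbols, H2bc6, H2bc7 and H2bc15 among them, and had an intensity of 214 on fucose and 594 off fucose (7.74 and 9.21; 2.78-fold higher). Another 2 naming the same symbols had identical values, 8.22 and 17.2, and were 2.10-fold higher. The 4 with H4 symbols differed by -0.21, 0.28, 0.43 and 0.57, and 1 that names H1f10 beside another gene by -0.13.

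H2A probe sets with a clear signal were all higher off fucose, each by less than 2-fold. The probe set of H2ac18, H2ac19 and H2ac20 had an intensity of 2319 on fucose and 3001 off fucose, or 11.18 and 11.55 (0.37), and a second probe set with these names had the same values. H2ac10, on its own probe set, had 68.5 and 114, or 6.10 and 6.83, and was 1.66-fold higher (0.73). Of the probe sets that H2ac4, H2ac6, H2ac22 and other copies share, one had 8.21 and 8.75 (0.54). The pair that also covers H2ac10 and H2ac15 had 7.93 and 8.34 (0.41). The median of these 6 was 0.41.

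The 12 dimmer H2A probe sets had differences between -0.22 and 0.80, with 8 above 0. The lowest was a further probe set of the shared copies, from 3.73 to 3.52. The highest was another of them, from 2.22 to 3.02. The shared set of 10 genes is named by 7 probe sets in all, whose on-fucose values ran from 2.22 to 8.21 and whose differences ranged over 1.02. H2ac20 alone, with 2.82 and 2.68 (-0.14), was not higher off fucose, unlike the probe sets it shares with H2ac18 and H2ac19. The 2 probe sets of H2ac21 had 0.15 and -0.17, and H2ac8 and its copies had a difference of -0.05 on the probe set nearest to 0. The male germ cell gene H2ac1 had 3.08 and 3.32. Over all 18 H2A probe sets the median was 0.19, with 14 higher and 4 lower.

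H4 is the most conserved core histone, and its genes encode nearly the same protein. H4c12 had an intensity of 974 on fucose and 1334 off fucose, or 9.93 and 10.38 (0.45; 1.37-fold). H4c14 differed the other way, with 5.33 and 5.02 (-0.30), the lowest of the class. H4c9 went from 3.88 to 4.61 (0.72) at a lower signal. H4c8 had 0.25, H4c2 -0.10 and H4c17 -0.18, all under 3 on the log2 scale, and H4c1 had 6.80 on both arrays in intensity. The 1 probe set shared by several H4 genes had 2.82 and 3.04. The class median was 0.11, with 4 higher and 3 lower.

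H3 carries many of the histone tail modifications, and no H3 gene could be read apart from its copies. The probe sets of H3c1, H3c8, H3c10 and H3c11 numbered 4, all under 4 in log2 intensity, and differed by 0.28 to 0.38, each higher off fucose. The 8 probe sets of H3c2, H3c3, H3c4, H3c6, H3c7, H3c13, H3c14 and H3c15 did not point one way. One of them had an intensity of 24.1 on fucose and 11.4 off fucose, or 4.59 and 3.51, and was the only member at least 2-fold lower (2.12-fold; -1.08). Another with the same gene names had 21.0 and 29.9, or 4.39 and 4.90 (0.51), and the others had differences between -0.17 and 0.14. The one nearest to 0 had 2.52 on each array. The class median was 0.14, with 9 of 12 higher.

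Linker histones were mostly near the floor of the scale. H1f2, a somatic H1, had an intensity of 110 on fucose and 139 off fucose, or 6.78 and 7.12 (0.34; 1.27-fold). H1f5 had 2.37 and 2.93 (0.56) and H1f1 2.29 and 2.60 (0.31), while H1f3 had 2.68 and 2.74 (0.06). The oocyte gene H1f8 had 3.27 and 2.43 (-0.83), the lowest of the class. H1f7 had 2.64 and 2.68 and lay nearest to 0 (0.03), H1f6 had 0.06, and the replacement type H1f10 had 0.13. The H1 median was 0.09 over 8 probe sets, 7 of them higher, and 0.33 over the 4 left without H1f6, H1f7, H1f8 and H1f10. H1f4 was measured only together with H2bc4, H2bc6 and H2bc8, with 4.28 and 3.46 (-0.82), against differences of 0.73 and 0.95 on the 2 probe sets that name those H2B genes alone.

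**Figure D3:**
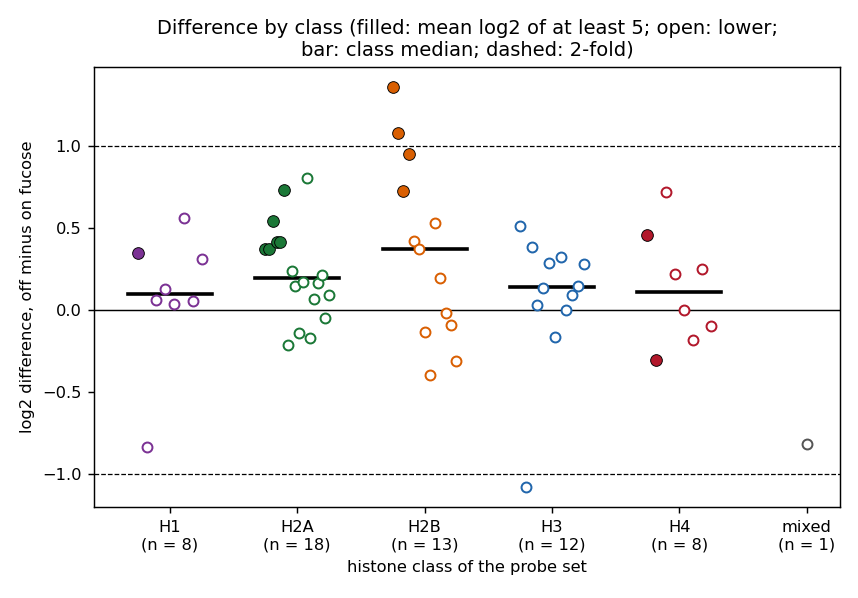
Log2 difference, off minus on fucose (vertical), of each histone probe set by class, filled where the mean log2 intensity is at least 5 and open where it is lower, with a bar at the class median. The 4 filled H2B points, from 0.73 to 1.36, lie above the other filled points except that of H2ac10, and the open points of the H1, H2A, H2B, H3 and H4 classes lie on both sides of 0.

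The S phase setting of these genes was read from lists of single genes, with 1 probe set each. Over all 22180 genes, 1.20% were at least 2-fold higher and 0.257% lower off fucose, with a median difference of -0.00081. Of them, 10566 were higher off fucose by any amount. Genes of DNA replication and S phase had a median of 0.61, with 31 of 31 higher off fucose and 8 at least 2-fold so. Cdc6, which loads the replicative helicase, had 3.20 and 5.40 (2.20). Uhrf1, which maintains DNA methylation behind the fork, had 1.43, the ribonucleotide reductase subunit gene Rrm1 1.32, and the helicase subunit gene Mcm5 1.25. Mitosis genes had a median of 1.35, with 21 of 21 higher and 14 at least 2-fold so. Ccna2, Plk1 and Mki67 had 2.18, 2.18 and 2.17 and Birc5 had 2.10. The 13 histone probe sets with a mean of at least 5, at 0.45, and all 60 members, at 0.17, had smaller medians than both lists. The lists had no intensity filter, unlike the 13, and the members include shared copies. Signal levels differed as well. On and off fucose the median log2 intensity was 2.77 and 2.91 for the 60 members and 7.92 and 8.34 for the 13. It was 4.47 and 5.40 for the S phase list and 3.26 and 4.79 for the mitosis list. These differences between medians were not tested.

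The factors that make and process histone mRNA were near equal on the arrays. Of 16 such genes, 9 were higher and 7 lower off fucose, none by 2-fold, with a median of 0.02. Slbp, which binds the stem-loop at the end of the mRNA, had 6.63 and 7.01 (0.38). Npat, the coactivator that cyclin E and Cdk2 switch on at the histone clusters, had 6.34 and 6.36 (0.02). Casp8ap2, a factor of the histone locus body, had 5.47 and 5.63 (0.15). Hinfp, which activates H4 promoters, had 5.38 and 4.53 (-0.85), the largest difference of the list in size. Cpsf2 of the cleavage complex had 0.34 and Coil, the coilin gene, 0.24. Pou2f1, whose product binds the octamer, had no probe set of its own.

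Histone chaperones went both ways. Over 18 genes the median was 0.06, with 13 higher off fucose and 1 at least 2-fold so. That one was Chaf1a, a subunit of the assembly factor CAF-1, with 2.81 and 4.13 (1.32). Asf1b, which hands over new H3 and H4 and is tied to dividing cells, had 5.51 and 6.41 (0.91), while its relative Asf1a had 8.31 and 8.39 (0.08). Hat1, which acetylates new H4, had 0.49. Rbbp4, another CAF-1 subunit gene, had -0.12, and the importin gene Ipo4 had -0.10. Ubn1 of the replication-independent HIRA complex had -0.47, while Hira and Cabin1 of the same complex had 0.06 and 0.04. Daxx, which deposits H3.3, had -0.37, and its partner Atrx had 0.06.

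All 9 replication-independent histone variants measured had a higher value off fucose, where 10566 of all 22180 genes did. None differed by 2-fold, the median was 0.17, and several were near equal on the arrays. H2ax, the variant phosphorylated at DNA breaks and made partly in S phase, had 8.56 and 9.50 (0.94). Cenpa, the H3 variant of centromeres, had 6.26 and 7.03 (0.77). H2aj had 0.32 and H2az1 0.24, while H2az2 had 0.03 and Macroh2a3 0.02. Macroh2a2, Macroh2a3 and H1f10 lay under 4 in log2 intensity on both arrays. The H3.3 genes H3f3a and H3f3b had no probe set of their own. H1f10 belongs both to this list and to the members.

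**Figure D4:**
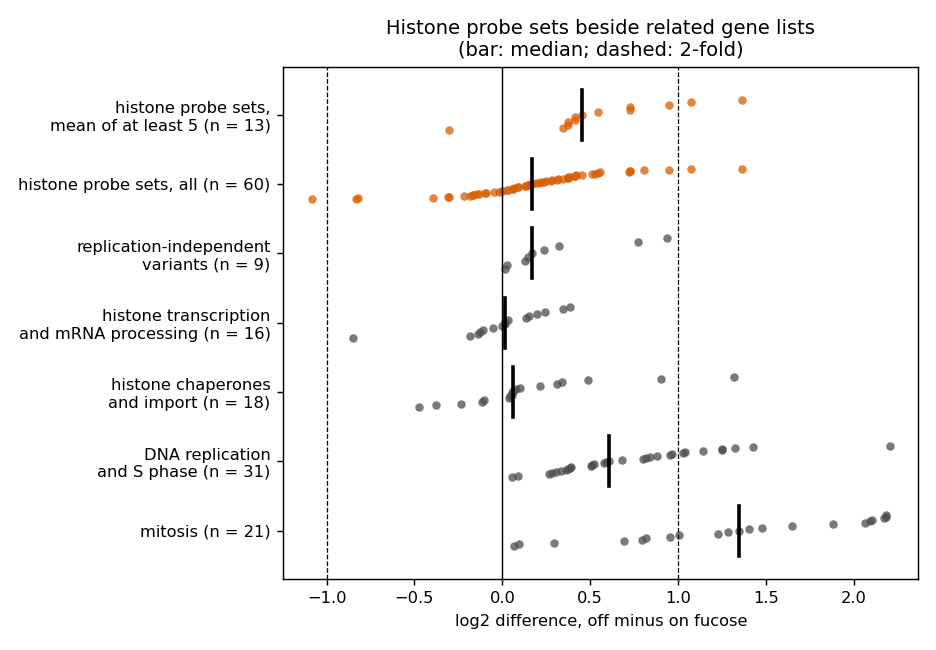
Log2 difference, off minus on fucose (horizontal), of the histone probe sets (orange) and of single genes in related lists (grey), with a bar at each median. The mitosis and S phase lists lie wholly above 0, with medians of 1.35 and 0.61, the histone mRNA factors centre on 0.02, and the 13 histone probe sets with a mean of at least 5 centre on 0.45.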

How the data were processed

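RNA (9 ng per array, per the labels' protocols) was labelled with the WT Pico chemistry. The deposited table holds 1 linear intensity per probe set and array, made by the authors with RMA according to the submitters' processing notes; version, settings and genome build are not given in the sources used here. Values were read as turned back from log2, and log2 was taken. RMA makes the arrays' distributions near-equal, so a shift of all genes would not be visible.

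Gene symbols came from the platform annotation. Every member probe set counted once, with no intensity filter. For gene lists, the probe set with 1 symbol and the highest mean stood for the gene. Named were members at least 2-fold apart, those with a mean of at least 5, the highest mean, lowest and nearest-to-0 difference per class, the germ-cell and replacement types, and up to 4 genes per related list with Slbp, Npat and Casp8ap2; others complete a description. The members, lists and limits were chosen with earlier results of these data known; the limit of 4 on log2 intensity and the list of germ-cell and replacement types were set after values were seen.

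Single arrays per group allow no test, and their number limits the precision. Alternatives were lowess (span 0.3), quantile normalisation, median and T cell centring, intensity filters, merged probe sets and other folds. Counting was tested on simulated data, with changes planted only in probe sets with a mean of at least 5. That test does not cover the dimmer members. The planted changes were also larger than the difference of any member, so changes of the size reported here were not covered. Python 3.11.15, pandas 2.3.3 and statsmodels 0.14.6 were used.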

Additional observations from a re-analysis of the deposited data

How the results depend on the processing

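No paired analysis was possible because there was a single array on each side, nor could an array be omitted. Low signal may limit the differences of dim probe sets, which was not tested. A median counted as moved when it shifted by more than 0.23, the robust SD of all differences, and a count when it changed by more than 1.5 times. By these limits lowess and quantile normalisation moved none, though the 2 members at least 2-fold higher became 3 under each. Median centring could move none, since the median difference over all probe sets was already 0. Centring on T cell markers adds 0.34 to every difference, and gave medians of 0.51 for the members, 0.44 for H1, 0.53 for H2A, 0.72 for H2B, 0.48 for H3 and 0.45 for H4. The members at least 2-fold higher and lower then numbered 7 and 0. The lists had 0.95 for cDC1, 0.18 for B cells (reversed from -0.17), 3.19 for granulocyte precursors, 1.66 for erythroid, 2.68 for basophil, 0.51 for histone variants, 0.36 for mRNA processing, 0.40 for chaperones, 0.95 for S phase and 1.69 for mitosis genes.

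The counts of 2 higher and 1 lower were 7 and 3 at 1.5-fold and 0 and 0 at 3-fold, 1 and 0 for probe sets with 1 gene, and 1 and 0 with probe sets of the same genes averaged. The brightest of such probe sets gave 0 lower, as did a mean of at least 5. With the 8 probe sets that also name another symbol, a choice made after seeing the data like the merging of identical ones, 5 were higher. At a mean of at least 5 the medians were 0.45 for the members, 0.34 for H1 (1 probe set) and 1.01 for H2B. The H1 median was 0.33 without the germ-cell and replacement types and reversed to -0.25 over the 2 probe sets at or above the array median. The H2B median was 0.087 over probe sets with 1 gene, and the H3 median 0.45 over the brightest probe set of each set of genes. Fewer probe sets enter these settings. The cause of other shifts was not tested.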
